A study of Mus musculus with 231 samples.

Results

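The miR-182, miR-183 and miR-96 cluster was followed in peripheral blood mononuclear cells of a mouse model of acute myeloid leukemia (AML). Its members were taken by name as the rows for mmu-miR-182-5p, mmu-miR-183-5p and mmu-miR-96-5p (written below without the species prefix), which gave 3 of the 1863 mature miRNAs in the training count table, and the same 3 rows were read from both tables of normalized values. CM mice carried a conditional Cbfb-MYH11 (CM) knock-in allele (Cbfb56M/+) and Mx1-Cre, a Cre that responds to interferon and is not restricted to blood cells, on a C57BL/6 background. All CM mice had the genotype label CHW, and control (Ctrl) mice were littermates labelled HW, CW or WT. The codes are not explained, so it cannot be told which Ctrl mice carried an allele without recombination. Mice of both arms were 6-8 weeks old when they received 7 doses of poly(I:C) at 14 mg/kg, given on alternate days. The training cohort held 7 CM mice with 53 libraries and 7 Ctrl mice with 76 libraries, sampled once ahead of induction (month 0) and then monthly up to month 10, or until a mouse was moribund. A validation cohort held 10 CM mice with 60 libraries and 6 Ctrl mice with 42 libraries, at points labelled 1 to 7 and L. Of the training mice, 4 CM mice and 2 Ctrl mice were female.

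The cluster encodes 3 miRNAs that are made from neighbouring hairpins and are usually transcribed together. It is best known from sensory organs such as the retina and the inner ear, and miR-182 is also induced in activated lymphocytes and in several tumours. A mature miRNA pairs with messenger RNAs mainly through its seed, bases 2 to 8 from the 5′ end, and the strand left over from the hairpin (here the 3p strand) is usually degraded. The mature sequences are shown because they set how alike the 3 reads are and which targets they could share. They are given 5′ to 3′ as RefSeq lists them for GRCm38.p6, with the seed in capitals.

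miR-182-5p: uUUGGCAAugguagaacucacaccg

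miR-183-5p: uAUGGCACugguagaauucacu

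miR-96-5p: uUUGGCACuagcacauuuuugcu

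No 2 members shared a whole seed. From miR-182-5p to miR-96-5p the seed differed by A8C, and from miR-183-5p to miR-96-5p by A2U, with positions counted from the 5′ end. Over the 22 bases where both could be aligned without gaps, miR-182-5p and miR-183-5p were identical at 18, whereas miR-183-5p and miR-96-5p were identical at 13. Among 1738 mature mouse miRNAs in the table, miR-1271-5p had the seed of miR-96-5p, and no other had the seed of miR-182-5p or miR-183-5p. All 3 hairpins lay on the minus strand of chromosome 6, Mir182 at chr6:30165918-30165992, Mir96 at chr6:30169446-30169551 and Mir183 at chr6:30169668-30169737. They spanned 3820 bases, and 3453 of these bases separated Mir182 from Mir96. That span fell inside the long non-coding RNA gene Mirc35hg, at chr6:30158640-30174125.

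Training libraries held 1792809 to 7958411 counts, and every member was counted in every one of them. Levels below are CPM, counts scaled to library size with TMM factors, a method that assumes most miRNAs do not differ. MiR-182-5p was the most abundant member, with 31.8 CPM in the lowest library, a median of 233 and 14457 in the highest. MiR-183-5p ran from 14.6 to 3726 CPM with a median of 80.1, and miR-96-5p from 11.5 to 1378 CPM with a median of 47.5. MiR-182-5p exceeded miR-183-5p in every training library. In bulk RNA, fewer cells of a type and less RNA per cell cannot be told apart.

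The 3 members rose and fell together from library to library. At month 0, over 14 mice, Pearson's r of log2(CPM + 1) was 0.938 for miR-182-5p with miR-183-5p (Spearman's rho 0.916), 0.929 for miR-183-5p with miR-96-5p (rho 0.899) and 0.930 for miR-182-5p with miR-96-5p (rho 0.947). Each r had a two-sided permutation p of 2.0e-05, adjusted p 2.0e-05 over 3 pairs, the smallest these permutations can give, and the permutation p of each rho was at most 4.0e-05. Without the 2 mice farthest from the median of the first member, r was 0.904, 0.917 and 0.901. Over all training libraries, which share mice and depth, r was 0.979, 0.950 and 0.932 in the same order, given as a description. In 11 of 14 mice all 3 members peaked in the same month.

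**Figure D1:**
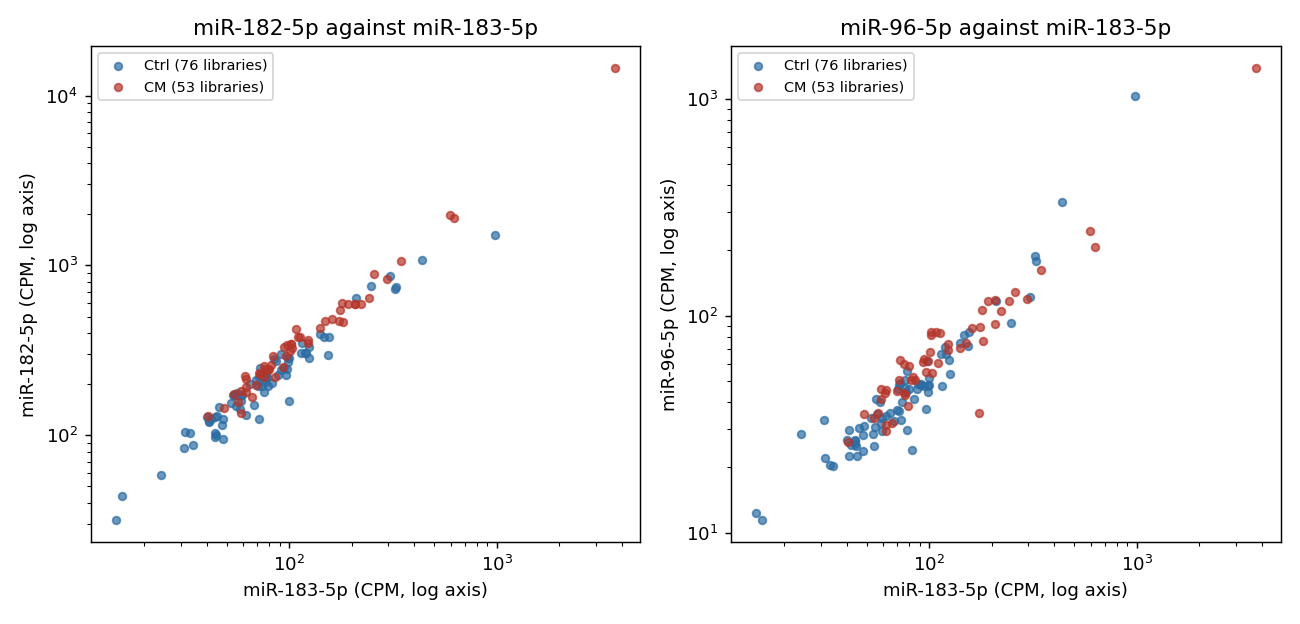
Level of miR-182-5p (left) and miR-96-5p (right) against miR-183-5p in each training library, in CPM on log axes, with 1 point per library and colour by arm. The points follow 1 band in both arms, and the highest CM library stands at 14457 CPM of miR-182-5p.

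By the same measure, miR-31-5p followed the members as the third in likeness for all 3, with r of 0.694 with miR-182-5p, 0.623 with miR-183-5p and 0.599 with miR-96-5p. For miR-182-5p the next were miR-700-3p (r 0.580) and miR-126a-5p (r 0.574). For miR-183-5p they were miR-429-3p (r 0.564) and miR-205-5p (r 0.533), both known from epithelia. For miR-96-5p they were miR-126a-5p (r 0.507) and miR-126a-3p (r 0.502), which are known from endothelium, platelets and hematopoietic stem cells. These followers differed in value between the arms: r of miR-183-5p with miR-429-3p was 0.385 in CM and 0.783 in Ctrl libraries, while r of miR-96-5p with miR-126a-3p was 0.662 in CM and 0.136 in Ctrl libraries. Without the highest CM library (mouse 3334, month 6.5), r over all other training libraries was 0.691 for the first pair and 0.430 for the second. The difference between the arms was not tested.

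Before induction the CM mice already had the higher medians. MiR-182-5p at month 0 was 174, 363 and 548 CPM (lowest, median, highest) in 7 CM mice and 99.9, 211 and 304 CPM in 7 Ctrl mice, and 4 CM mice lay above every Ctrl mouse. The log2 fold change was 0.72 ± 0.28 (SE) with an edgeR quasi-likelihood adjusted p of 0.284. MiR-183-5p differed by 0.43 ± 0.30 (edgeR adjusted p 0.541) and miR-96-5p by 0.47 ± 0.28 (edgeR adjusted p 0.461). None of the 3 members passed an adjusted p of 0.05, against 0.209% of the 478 miRNAs tested.

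At month 1, miR-182-5p and miR-96-5p were higher in CM mice. MiR-182-5p was 219, 346 and 834 CPM in CM and 121.999, 194 and 304 CPM in Ctrl mice, or 0.98 ± 0.30 (SE) on the log2 scale, with adjusted p 0.0274 by edgeR. MiR-96-5p was 43.3, 69.5 and 119.98 CPM in CM and 29.9, 45.9 and 66.3 CPM in Ctrl mice, or 0.75 ± 0.26 log2 units, with adjusted p 0.0467 by edgeR. MiR-183-5p was 72.3, 101.8 and 295 CPM in CM and 40.8, 70.6 and 113.3 CPM in Ctrl mice, or 0.92 ± 0.34 log2 units, with adjusted p 0.0527 by edgeR. The arms overlapped for each member, and 4, 3 and 4 of 7 CM mice lay above every Ctrl mouse for miR-182-5p, miR-183-5p and miR-96-5p. The count of 2 members of 3 stands beside 27.5% of all 472 miRNAs tested. With 1 mouse left out at a time, the call of miR-182-5p held in 8 of 14 fits and was lost without mouse 3338, 3339, 3340, 3342, 3349 or 3357, and that of miR-96-5p held in 4 of 14, those without mouse 3334, 3335, 3350 or 3368.

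Sex and a further label moved with that difference. The 4 female CM mice had 346 to 834 CPM of miR-182-5p, the 3 male CM mice 219 to 247, the 2 female Ctrl mice 173 to 247 and the 5 male Ctrl mice 121.999 to 304. With sex in the fit the log2 fold change of miR-182-5p was 0.66 (edgeR adjusted p 0.117) and that of miR-96-5p 0.54 (edgeR adjusted p 0.153). With the G number of the library titles, which the labels do not explain, the values were 0.34 (edgeR adjusted p 0.49996) and 0.35 (edgeR adjusted p 0.422). Within the 3 G numbers that held both arms at month 1, miR-182-5p and miR-96-5p were higher in CM in 3 of 3 and miR-183-5p in 2 of 3, with differences of 0.17 to 0.68, 0.22 to 0.70 and -0.14 to 0.63 on the log2 scale. Erythroid miRNAs were higher too (5 of 5 called), as were both strands of miR-126a, 3 of 5 progenitor and 1 of 7 epithelial miRNAs. None of 9 activated lymphocyte, 4 mature lymphocyte or 2 myeloid miRNAs was called, nor the 1 neural miRNA tested. The part of these cell types in the result was not tested.

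The step from month 0 to month 1 was not a called change in either arm. In CM mice the log2 fold change was 0.22 ± 0.34 for miR-182-5p, 0.32 ± 0.38 for miR-183-5p and 0.32 ± 0.30 for miR-96-5p (edgeR adjusted p 0.722, 0.623 and 0.520), where 12.7% of the miRNAs tested were called. Ctrl mice gave -0.12 ± 0.23, -0.24 ± 0.25 and -0.03 ± 0.24 (edgeR adjusted p 0.824, 0.656 and 0.968), where 0.63% of 476 were called. The difference between the arms in that step was 0.36 ± 0.43, 0.59 ± 0.47 and 0.38 ± 0.40 (edgeR interaction, adjusted p 0.635, 0.439 and 0.588), with 8.46% of 520 miRNAs called. For month 3 against month 0 it was -0.29 ± 0.52, -0.28 ± 0.57 and -0.38 ± 0.55 (adjusted p 0.811, 0.830 and 0.762), with 2.33% of 515 called. The month 1 difference between arms was therefore not shown to exceed that present before induction.

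From month 2 to month 6 no member passed the test. At month 2 the log2 fold changes were 0.32 ± 0.46, 0.13 ± 0.48 and 0.33 ± 0.37 for miR-182-5p, miR-183-5p and miR-96-5p (13.5% of 481 called), while month 3 gave 0.42 ± 0.40, 0.14 ± 0.45 and 0.08 ± 0.44 (22% of 455 called). Month 4 gave the widest gap. MiR-182-5p was then 129.3, 430.4 and 1982 CPM in 6 CM mice and 128.9, 203 and 349 CPM in 7 Ctrl mice. The differences were 1.61 ± 0.52, 1.44 ± 0.52 and 1.57 ± 0.43 with edgeR adjusted p of 0.139, 0.165 and 0.0790, where 0.837% of 478 were called. Without CM mouse 3338 they were 0.69, 0.54 and 0.92. For miR-96-5p, 5 of 6 CM mice lay above every Ctrl mouse, and its difference passed with DESeq2 (adjusted p 0.0211) and without mice 3334 and 3335 (edgeR adjusted p 0.0478). Those fits called 4.23% and 1.46% of the miRNAs tested.

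The differences of miR-182-5p and miR-183-5p at months 5 and 6 turned negative without 1 mouse. Month 5 gave 0.53 ± 0.51, 0.49 ± 0.54 and 0.72 ± 0.39, or -0.11, -0.23 and 0.25 once CM mouse 3370 was left out. Month 6 gave 1.08 ± 0.68, 0.90 ± 0.62 and 0.41 ± 0.49, or -0.25, -0.29 and -0.37 once CM mouse 3341 was left out. EdgeR called 0% of miRNAs in both months, with 21.6% and 6.98% at an unadjusted p below 0.05, and DESeq2 called 18 and 0 miRNAs.

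**Figure D2:**
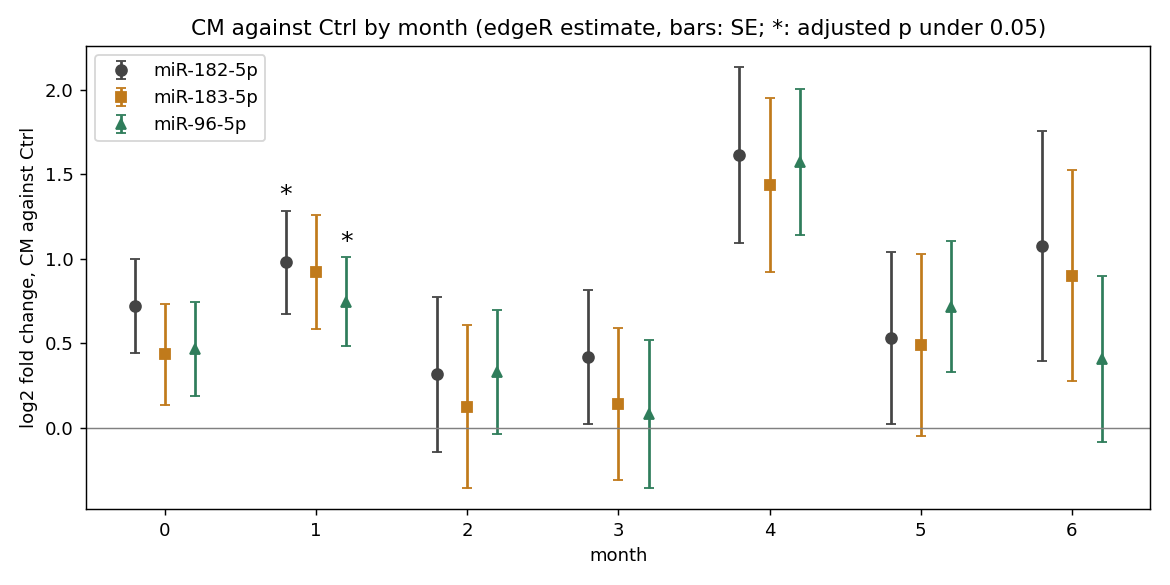
Log2 fold change of CM against Ctrl for each member at months 0 to 6, as edgeR estimates with bars of 1 SE and an asterisk where the adjusted p was under 0.05. All 21 estimates were above 0, and asterisks stand on miR-182-5p and miR-96-5p at month 1.

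Averaged over months 1 to 6 within each mouse, log2(CPM + 1) of miR-182-5p was 8.58 ± 0.71 (SD, n = 7) in CM and 7.88 ± 0.32 (n = 7) in Ctrl mice, a difference of 0.70 with a two-sided exact permutation p of 0.0303, adjusted p 0.0909 over 6 tests. For miR-183-5p the difference was 0.58 (exact permutation p 0.0554, adjusted 0.111) and for miR-96-5p 0.62 (exact permutation p 0.0251, adjusted 0.0909). In each case 4 of 7 CM mice lay above every Ctrl mouse. These were the female CM mice 3336, 3338, 3341 and 3357, and no male CM mouse did so. Sex was not part of this test, and its share in the differences was not tested. Without CM mouse 3334 the differences were 0.84, 0.70 and 0.77, with adjusted exact permutation p of 0.0315, 0.0466 and 0.0210, and this was the 1 of 14 omissions that gave a call. Without CM mouse 3338 they were 0.51, 0.39 and 0.47, with adjusted exact permutation p of 0.182, 0.221 and 0.182. The slopes over months 0 to 6 differed by 0.04, 0.04 and 0.05 log2 units per month, with exact permutation p of 0.659, 0.575 and 0.462. Without mice 3334 and 3335 they differed by 0.11, 0.095 and 0.079 (exact permutation p 0.305, 0.281 and 0.305). Over all months, which adds the late libraries, the differences were 0.22, 0.18 and 0.15 (exact permutation p 0.0262, 0.0624 and 0.0746, adjusted 0.0524, 0.0746 and 0.0746), and none passed after adjustment.

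Single libraries far above the rest of a mouse's course occurred in both arms. CM mouse 3334 had 14457 CPM of miR-182-5p at month 6.5, where the median of its other libraries was 197, together with 3726 CPM of miR-183-5p and 1378 CPM of miR-96-5p. CM mouse 3338 reached 1982 CPM at month 4, CM mouse 3341 reached 1901 at month 6 and CM mouse 3370 reached 1067 at month 5. Ctrl mouse 3339 reached 1521 CPM at month 8 and Ctrl mouse 3340 reached 1077 at month 9. The title numbers of mice 3334 (CM) and 3335 (Ctrl) change places at month 6, while their mouse and arm labels do not. Whether libraries were exchanged between these mice was not tested, and an exchange would change the arm of the 14457 CPM library, so the comparisons between arms were repeated without both.

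**Figure D3:**
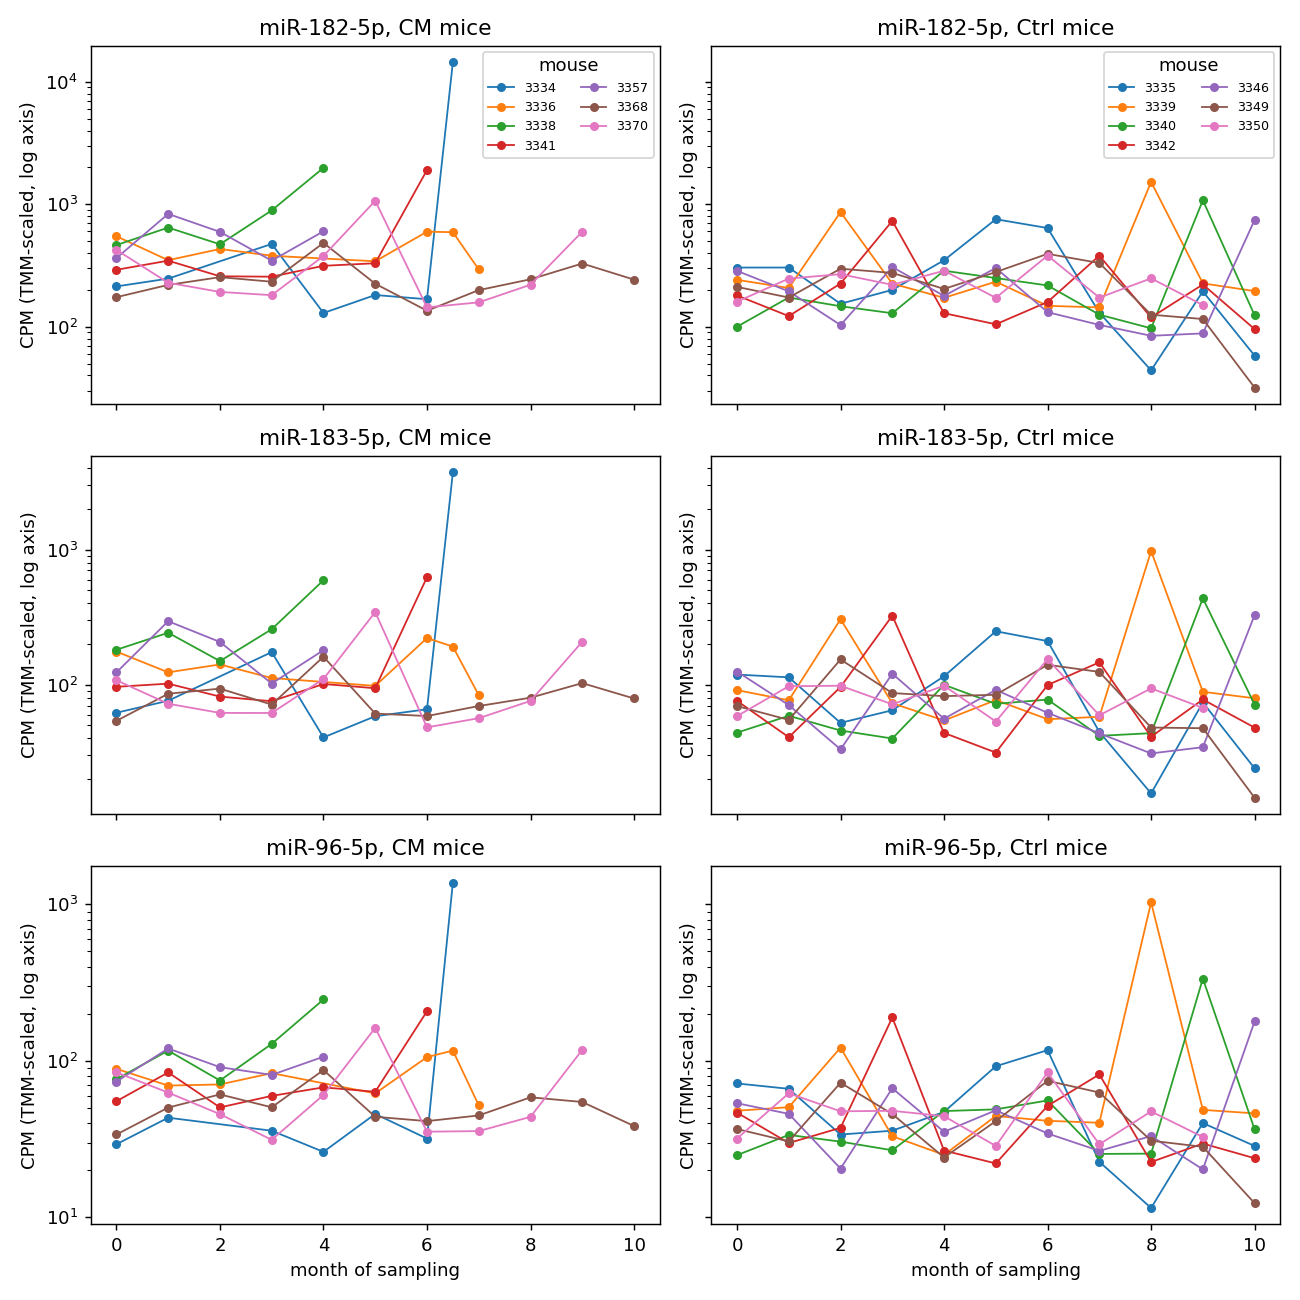
CPM of each member (rows, log axis) by month of sampling in 7 CM mice (left) and 7 Ctrl mice (right), with 1 line per mouse. Mouse 3334 ends at 14457 CPM of miR-182-5p, and isolated peaks are seen in Ctrl mice 3339 and 3340.

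The high libraries differed in the mix of members and in their other miRNAs. In the month 8 library of Ctrl mouse 3339, miR-96-5p (1029.5 CPM) exceeded miR-183-5p (975 CPM), and miR-182-5p was 1.56 times miR-183-5p, against 3.88 times in the month 6.5 library of CM mouse 3334. That Ctrl library also had 1095 CPM of miR-124-3p, a neuronal miRNA that did not exceed 43.7 CPM in any other training library. The other miRNA of the neural list, miR-9-5p, was at 3.60 CPM there, against a median of 4.93 in the other libraries of that mouse. The month 9 library of Ctrl mouse 3340 had a summed epithelial list of 13029 CPM against a median of 2216 in its other libraries. The same list was also high in the top library of CM mouse 3370 at month 5 (5893 against 1823 CPM), without which the month 5 difference of miR-182-5p was -0.11, and in those of Ctrl mice 3346 (8420.4 against 2013 CPM) and 3342 (8290.4 against 2341 CPM). The top libraries of CM mouse 3357 at month 1 (4794 against 2316 CPM) and Ctrl mouse 3350 (4860 against 2247 CPM) had more of it too. In those of CM mice 3334 and 3338 and Ctrl mouse 3339 the epithelial list was lower, at 814, 931 and 1932 CPM against 1886, 2865 and 2480. In the late libraries of CM mice 3334 and 3341 the 2 strands of miR-126a summed to 4034 and 7544 CPM, against medians of 248 and 489 in their other libraries. The neural list was at 0 to the nearest CPM in both. Their activated lymphocyte list was 251269 and 219562 CPM, against medians of 143630 and 199008. It was 176173 against 208486 CPM in the top library of CM mouse 3338. In mice 3334 and 3341 the mature lymphocyte list was 9572 and 19753 CPM (against 30292 and 52420). Their progenitor list was 2604 and 9657 CPM (against 11237 and 11884). That miR-126a sum was also 2952 CPM in the top library of CM mouse 3338. In CM mouse 3336 it was 2305 CPM at month 7, with 293 CPM of miR-182-5p, the lowest of that mouse. In CM mouse 3357 it was 2199 CPM at month 3, with 346 CPM of miR-182-5p, and 2178 CPM at month 4, with 601 CPM of miR-182-5p. In CM mouse 3338 it was 2403 CPM at month 3, with 890.5 CPM of miR-182-5p. The part of other cell types in these levels was not tested.

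The last CM library of each mouse was compared with its month 0 library, as the library nearest the end of each mouse's follow-up. MiR-182-5p was 14457, 293, 1982, 1901, 601, 242 and 596 CPM in the last libraries of mice 3334, 3336, 3338, 3341, 3357, 3368 and 3370. It exceeded the same mouse's month 0 level in 6 of 7 mice, with a median ratio of 1.66 and a range of 0.536 to 67.8. MiR-183-5p and miR-96-5p did so in 6 of 7 mice as well, with median ratios of 1.93 and 1.44. The log2 fold changes were 3.26 ± 0.87, 3.01 ± 0.83 and 2.51 ± 0.73 (SE) with edgeR adjusted p of 0.00946, 0.0105 and 0.0138, and 39% of 446 miRNAs were called. All 3 calls were lost when each mouse was its own block, at 1.56, 1.53 and 1.27 (edgeR adjusted p 0.127, 0.125 and 0.161), and without mouse 3334, at 1.43, 1.37 and 1.00 (edgeR adjusted p 0.0582, 0.0736 and 0.102).

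**Figure D4:**
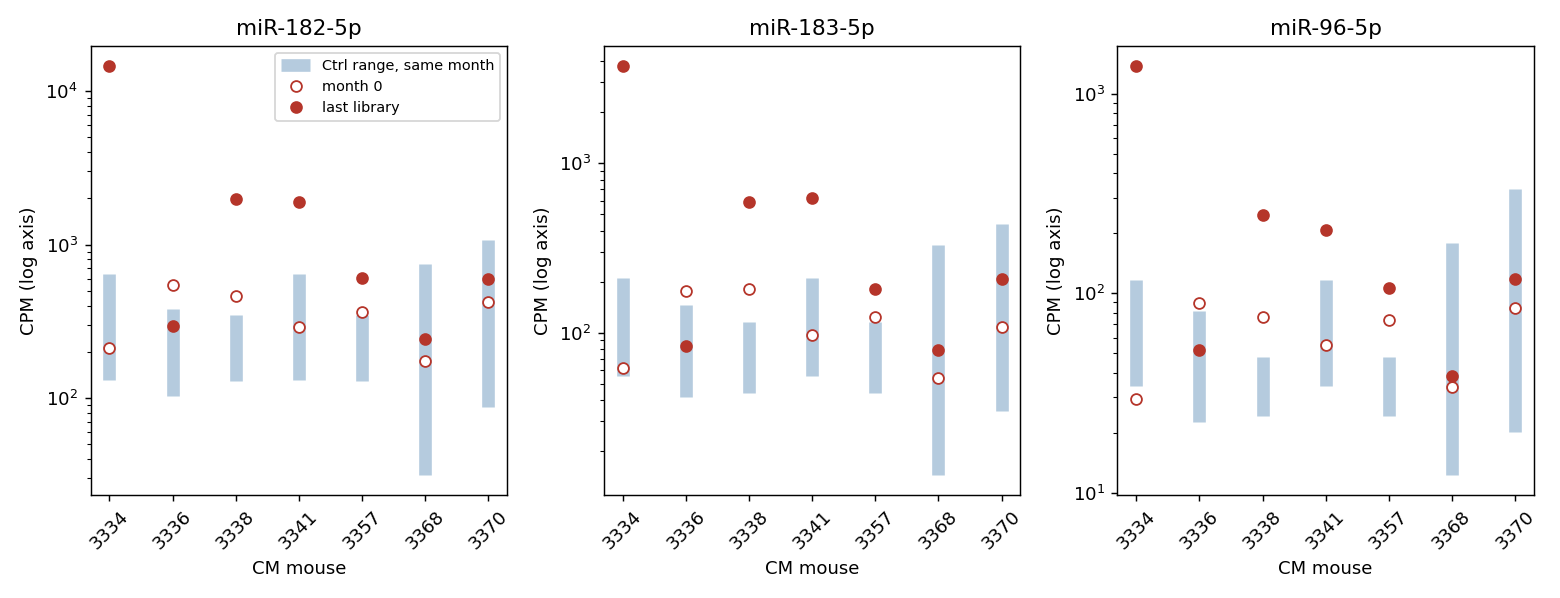
CPM (log axis) of each member in the month 0 library (open circle) and last library (filled circle) of each CM mouse, over a bar for the lowest to highest Ctrl library of the same month, month 6 for mouse 3334. In mice 3334, 3338, 3341 and 3357 the last library lies above the whole Ctrl bar for all 3 members.

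Set against Ctrl libraries of the same month, the last library lay above all of them in 4 of 7 CM mice for every member. Those were mice 3334, 3338, 3341 and 3357, while the last libraries of mice 3336, 3368 and 3370 fell inside the Ctrl range. In Ctrl mice, month 6 against month 0 gave 0.48 ± 0.35, 0.46 ± 0.32 and 0.55 ± 0.28 (edgeR adjusted p 0.353, 0.318 and 0.177), with 20.5% of 474 miRNAs called. Among marker lists in the last CM libraries, both strands of miR-126a rose, 5 of 9 activated lymphocyte miRNAs rose, 3 of 4 mature lymphocyte miRNAs fell and 1 of 2 myeloid miRNAs fell. Of the erythroid list 2 rose and 1 fell of 5, of the progenitor list 1 of 5 rose, of the epithelial list 2 of 7 fell, and no neural miRNA could be tested. Median log2 fold changes were 4.02 for miR-126a, 0.57 for the erythroid and 0.53 for the activated lymphocyte list. They were -1.17 for the myeloid, -0.85 for the mature lymphocyte, -0.42 for the epithelial and -0.37 for the progenitor list, beside -0.057 over all miRNAs tested.

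The balance between the members was examined after its values had been seen. Over months 1 to 6 the ratio of miR-182-5p to miR-183-5p was 3.07 (geometric mean over 7 CM mice, range 2.88 to 3.26) and 2.83 (7 Ctrl mice, range 2.50 to 3.07), with an exact permutation p of 0.0122, adjusted p 0.0367 over 6 tests. At month 0 it was 3.15 in CM and 2.54 in Ctrl mice (exact permutation p 0.00874, adjusted 0.0367). The differences between arms in the log2 ratio were 0.12 and 0.31. Both calls were lost on the deposited CPM, at 0.088 and 0.31 (adjusted exact permutation p 0.0991 and 0.0629), and without mice 3334 and 3335, at 0.14 and 0.29 (adjusted exact permutation p 0.0649 and 0.0844). The other ratios did not pass, with adjusted exact permutation p of 0.0769 or more.

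The 3p strands were scarce. MiR-182-3p had more than 3 counts in 4 training libraries and miR-96-3p in 2, whereas miR-183-3p did so in 87. The highest counts were again in mouse 3334 at month 6.5, with 174 of miR-182-3p, 160 of miR-183-3p and 26 of miR-96-3p, beside 46732 of miR-182-5p. No 3p strand was abundant enough to be tested at each month.

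In the validation cohort, depth and scaling set what could be read. Point 5 libraries held 1645456 to 5445215 reads, while the 88 other libraries whose reads could be recovered held 1744 to 76906. The deposited values of a library summed to between 95870 and 2340684 outside point 5 and to between 6037693 and 16258752 at point 5, so the scale differed between points. Point L against point 1 is the one comparison made across points, and its scale is given beside it. As CPM of each library's own recovered reads, miR-182-5p at point 5 was 269, 322 and 679 (lowest, median, highest) in 6 CM mice and 256, 469 and 819 in 6 Ctrl mice. On the deposited scale the log2 difference of CM against Ctrl was -0.08 ± 0.35 for miR-182-5p, -0.17 ± 0.37 for miR-183-5p and 0.02 ± 0.39 for miR-96-5p (limma adjusted p 0.982, 0.982 and 0.999). The arms overlapped for all 3, and limma called 0% of 930 miRNAs, with 54 at an unadjusted p under 0.05 and 0 called by edgeR on recovered reads.

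At the other points few reads fell on the cluster. MiR-182-5p had a median of 2 reads and was at 0 in 18 of 88 libraries, miR-183-5p had a median of 7.5 reads, and miR-96-5p was at 0 in 71 of 88. Contrary to the training order, miR-183-5p had more reads than miR-182-5p in 82 of these 88 libraries, with 1249 against 492 reads in all. Ctrl mouse 2702 at point 7 was an exception, with 254 reads of miR-182-5p, 29 of miR-183-5p and 33 of miR-96-5p. Over these 6 points, limma adjusted p of CM against Ctrl ran from 0.608 to 0.987 for miR-182-5p and from 0.786 to 0.987 for miR-183-5p, and miR-96-5p was too rare to be tested. Limma called 2.78% of all miRNAs tested at point 2. Its share was 0% at each of points 1, 3, 4, 6 and 7, with 18, 1, 20, 5 and 8 miRNAs below 0.05 before adjustment. EdgeR on recovered reads called 0 there, but it could test only 21, 12, 34, 24 and 12 miRNAs. At point 2 it called 4 of 9.

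The 5 CM mice with a point L library had more cluster reads there than at point 1. At point L miR-183-5p had 60, 68, 91, 140 and 27 reads, miR-182-5p 9, 8, 3, 46 and 14 reads, and miR-96-5p 1, 3, 1, 19 and 1 reads in mice 2690, 2708, 2718, 2719 and 2731. Point 1 libraries of the CM arm had 5 to 18 reads of miR-183-5p, 0 to 8 of miR-182-5p and none of miR-96-5p. The deposited values summed to 1077867 to 2124443 in CM libraries of point 1 and to 95870 to 333617 at point L, so the scaling differed with the comparison. On that scale miR-183-5p differed by 1.88 ± 0.58 (limma adjusted p 0.0309) and miR-182-5p by 3.09 ± 1.16 (limma adjusted p 0.0627), with 18.1% of 166 miRNAs called. When 1 of the 5 mice was left out at a time, the call of miR-183-5p held in 1 of 5 fits. MiR-96-5p also passed (limma adjusted p 0.0103), but it entered the test only through the point L libraries, 4 of which held 3 reads or fewer, so no fold is given. As CPM of own recovered reads, the difference was 4.79 ± 0.69 for miR-183-5p and 5.91 ± 1.21 for miR-182-5p (limma adjusted p 1.0e-05 and 0.000497). That fit called 36.1% of 166 miRNAs. At point 1 the same 5 mice had 2, 0, 2, 1 and 2 reads of miR-182-5p, in the order above. Every fold of miR-182-5p given here therefore rests on 2 reads or fewer per point 1 library. For mouse 2708 the limma folds rest on 0 reads plus the added 1. EdgeR on recovered reads gave 1.24 for miR-183-5p (edgeR adjusted p 0.0793) and 1.502 for miR-182-5p (edgeR adjusted p 0.0396), with 44.4% of 27 miRNAs called. The size of the difference therefore depended on the scaling.

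**Figure D5:**
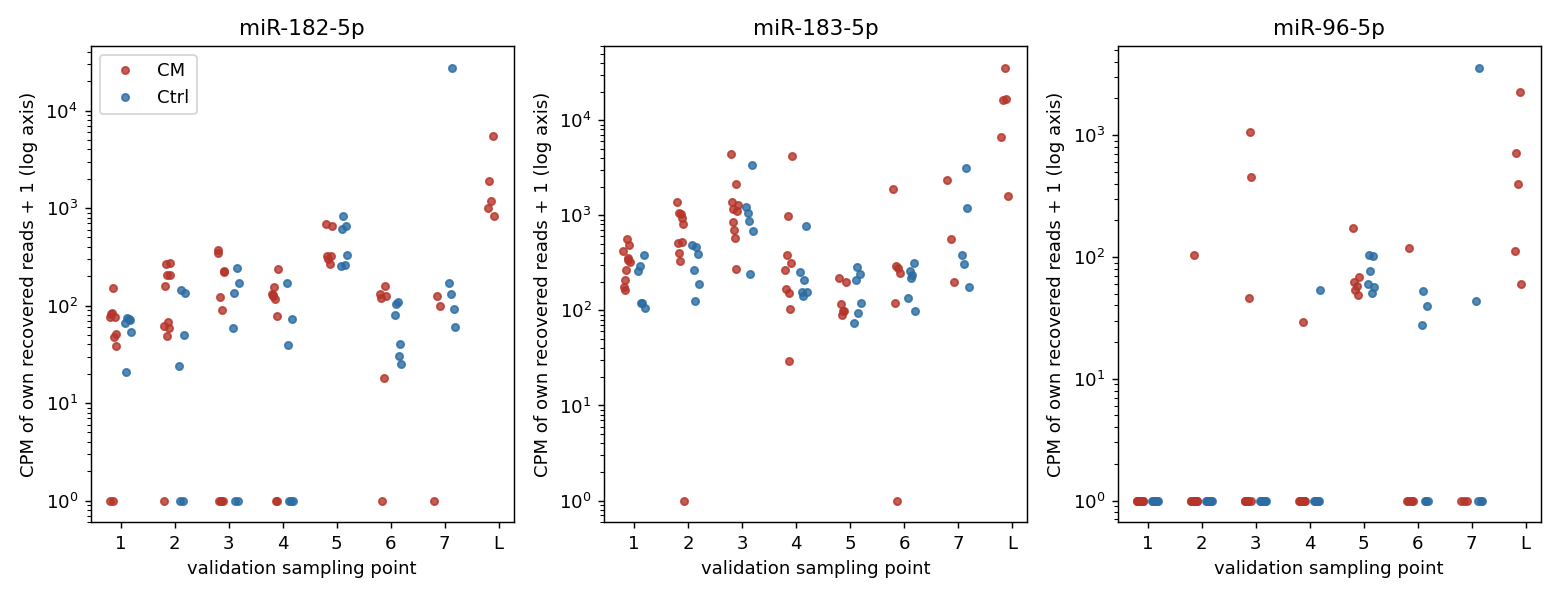
CPM of each library's own recovered reads, plus 1, for each member on a log axis, by validation point and arm, with 1 point per library. Point 5 is the only deep point, and the 5 libraries of point L hold 826 to 5448 CPM of miR-182-5p.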

How the data were processed

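Small RNA libraries of PBMC were sequenced. The authors trimmed, aligned and counted reads per mature miRNA with cutadapt, Bowtie and SAMtools, and scaled them with edgeR. The labels name GRCm38 and the study's methods mm9, so the build of the files was not settled. The training table holds deposited counts. Both tables of normalized values (a signal, TMM-scaled CPM) were made by the authors, and all values above 0 (100%) were whole reads within 0.01, except that 2 validation columns had too few low values for recovery. edgeR on reads recovered from the training values called 204 of 453 miRNAs (45.0%) in the last CM libraries against month 0. On the deposited counts it called 174 of 446 (39.0%).

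Arm, mouse and time came from the labels. Counts were tested with edgeR 4.0.16 (quasi-likelihood, TMM, Benjamini-Hochberg adjustment over all miRNAs tested), deposited validation values with limma 3.58.1 on log2(value + 1), kept at 1 or more in as many libraries as the smaller group, and mouse means with exact permutation tests (scipy 1.17.1). DESeq2 1.42.0 was an alternative. Numbers pair libraries of the same animal, and same-mouse deviations correlated at -0.18 to 0.13. Named miRNAs were the members, their 3p strands, miRNAs of the same seed, and the 5 of at least 10 CPM most correlated with each member. Members and lists were chosen with earlier results of these data known. Library replicates were separate mice, and tests were checked on simulated data.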

Additional observations from a re-analysis of the deposited data

Results flagged for a closer look

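Among 60 groups of 4 to 10 libraries (each member in each arm and month, and at validation point 5), 7 had a highest library that stood apart, judged by its gap to the next library as a share of the group's range on the log2(CPM + 1) scale. Chance flags about 1 in 20 groups, and the members move together, so the flags are not independent. In Ctrl mice at month 9 the gap was 0.625 for miR-182-5p, 0.631 for miR-183-5p and 0.693 for miR-96-5p, all from mouse 3340. In Ctrl mice at month 8 it was 0.573 for miR-183-5p and 0.692 for miR-96-5p, from mouse 3339. In CM mice at month 5 it was 0.710 for miR-183-5p and 0.720 for miR-96-5p, from mouse 3370.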

How the results depend on the processing

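Values are log2 differences of CM against Ctrl unless stated. The month 1 calls were lost without TMM (miR-182-5p 0.93, miR-96-5p 0.69), with sex as a covariate (0.66, 0.54), with the G number (0.34, 0.35), in 1 fit of all training libraries (0.98, 0.75) and in that fit with the G number (0.96, 0.81), and for miR-96-5p also with other library sizes (0.78) or no filter (0.82). MiR-183-5p was called with DESeq2 (1.01), without mice 3334 and 3335 (1.15) and on recovered reads (0.93). Leaving out single mice gave 0.71 to 1.09 for miR-182-5p (called in 8 of 14), 0.65 to 1.04 for miR-183-5p (3 of 14) and 0.62 to 0.85 for miR-96-5p (4 of 14).

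The last CM libraries against month 0 lost their calls with mouse as a block (1.56, 1.53 and 1.27 for miR-182-5p, miR-183-5p and miR-96-5p), with the block and no mouse 3334 (1.01, 0.99, 0.76), without mouse 3334 (1.43, 1.37, 1.00) and with its month 6 library as its last (1.33, 1.30, 0.95). On the deposited CPM miR-183-5p (1.797) and miR-96-5p (1.54) lost theirs. Leaving out single mice gave 1.43 to 3.63, 1.37 to 3.38 and 1.00 to 2.82. The block changed no other call of a member. Mouse means without mice 3334 and 3335 were called at 0.93, 0.78 and 0.84, and without single mice ran from 0.51 to 0.84, 0.39 to 0.70 and 0.47 to 0.77. The miR-182-5p slope ran from -0.017 to 0.077 and turned negative without CM mouse 3338. Over all months the slopes differed by 0.22, 0.18 and 0.15. Over months 0 to 6 without mice 3334 and 3335 they differed by 0.11, 0.095 and 0.079.

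MiR-96-5p at month 4 was called with DESeq2 (1.53) and without mice 3334 and 3335 (1.88), and ran from 0.92 to 1.78 without single mice, where miR-182-5p ran from 0.69 to 1.85 and miR-183-5p from 0.54 to 1.68, each lowest without CM mouse 3338. Directions turned for uncalled values. At month 2 miR-183-5p was -0.16 with sex, -0.21 in the fit of all libraries with the G number and -0.036 without mice 3334 and 3335, and miR-96-5p was -0.029 in that joint fit. At month 3 miR-183-5p was -0.091 without those mice and miR-96-5p -0.092 with sex. At month 6 miR-183-5p was -0.28 and miR-96-5p -0.19 with the G number, and miR-96-5p -0.13 with sex. The Ctrl step to month 1 of miR-96-5p was 0.032 without TMM, 0.0086 without filter and 0.036 without those mice. Leaving out single mice gave, for miR-183-5p, -0.065 to 0.62 at month 2, -0.10 to 0.74 at month 3, -0.23 to 0.95 at month 5 and -0.29 to 1.15 at month 6. For miR-96-5p it gave -0.11 to 0.71 at month 3 and -0.37 to 0.63 at month 6, and for miR-182-5p -0.11 to 0.95 at month 5 and -0.25 to 1.34 at month 6.

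At validation point 5, leaving out single mice gave -0.31 to 0.10, -0.39 to 0.031 and -0.32 to 0.20. On each library's own recovered reads, a scaling added after seeing the data, miR-183-5p turned to 0.35, 0.22 and 0.091 at points 2, 3 and 7, and miR-96-5p to -0.058 at point 5. For point L against point 1, miR-182-5p was called with edgeR on recovered reads (1.502) and on own-read CPM (5.91), and miR-183-5p was not called without filter (1.88) or with edgeR (1.24), and ran from 1.576 to 2.20 without single mice (also added later), called in 1 of 5. The cause of these changes was not tested. Point 1 held 2 reads or fewer of miR-182-5p in each mouse with a point L library.

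Counts of miRNAs called also moved. Leaving out single mice moved them by over 1.5 times at month 2 (from 13.5% to 26.6% of miRNAs without Ctrl mouse 3349), month 4 (4 to between 0 and 14, in 11 of 13 fits, highest without CM mouse 3334), month 5 (0 to 37 without Ctrl mouse 3335 and 4 without CM mouse 3368), month 0 (1 to 0 in 8 of 14 fits and to 2 without CM mouse 3338) and point L (30 to 14 without mouse 2719 and 16 without mouse 2708). With the G number, 10 in place of 130 were called at month 1, 0 in place of 65 at month 2 and 6 in place of 100 at month 3. At month 2 DESeq2 called 21.1% and recovered reads 22.2% of the miRNAs tested, in place of 13.5%, and no filter and the joint fit with the G number 42 each. That joint fit called 62 at month 3. In place of 4 at month 4, the 2 joint fits called 70 and 51, DESeq2 20, no filter 13, recovered reads 10, the fit without mice 3334 and 3335 7 and the fit with sex 0. In place of 0, the joint fits called 18 and 6 at month 5 and 19 and 15 at month 6, DESeq2 18 at month 5, and the fit without those mice 53 at month 5. Month 0 went from 1 to 4 with DESeq2, to 0 in 8 other alternatives and stayed at 1 in 3. With the block, the CM step to month 1 fell from 59 to 16 calls, the Ctrl step from 3 to 0, and the interactions from 44 to 21 and from 12 to 0. Without TMM the CM step had 39 and the month 1 interaction 27. The Ctrl step had 15 with DESeq2 and 0 without mice 3334 and 3335. With the block and no mouse 3334 the last libraries had 99 in place of 174. For point L, edgeR called 12 of 27 miRNAs tested (44.4%) and own-read CPM 60 of 166 (36.1%), in place of 30 of 166 (18.1%). At point 2, own-read CPM called 10 and no filter 2 in place of 4, and no filter called 1 in place of 0 at points 1, 3, 6 and 7. Depth limits every validation point but 5, since a median of 2 reads of miR-182-5p per library leaves differences between arms undetectable unless very large.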
